A study of Drosophila melanogaster with 6 samples.

Results

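The genes of Drosophila melanogaster that encode translation factors and aminoacyl-tRNA synthetases were compared between tendon precursors and whole leg disc cells at the onset of pupation. Members were chosen by name: genes whose symbol in the FPKM table opens with eIF, eEF, EF1, Ef1, EF2 or Aats-, or is a 3-letter amino acid code followed by RS. The rule found 57 genes of 17411, of which 29 were initiation factors, 6 elongation factors and 22 synthetases. Of the synthetases, 15 are cytosolic and 7 are mitochondrial by their current symbols. Leg discs of sr-gal4>UASGFP animals at 0 h after puparium formation (APF) were dissociated and sorted by FACS into GFP+ cells (3 libraries) and input cells (3 libraries, labelled control), which were sorted independently of fluorescence. The driver sr-gal4 is an enhancer trap in stripe (sr), whose product is the key regulator of tendon differentiation, and both groups carry the same genotype, which the study's methods give as UAS-Lifeactin.GFP with sr-gal4. Each library pooled the leg discs of many animals. Input cells include GFP+ cells and were taken before them in the sort, so the order of sorting cannot be told apart from the group.

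Translation starts when eIF2 brings initiator tRNA to the small ribosomal subunit, and when eIF4F, made of the cap-binding protein eIF4E, the helicase eIF4A and the scaffold eIF4G, recruits that subunit to the capped mRNA with the help of eIF3. Elongation then needs eEF1A to deliver charged tRNAs, eEF1B to recycle eEF1A, and eEF2 to move the ribosome along. Each aminoacyl-tRNA synthetase charges tRNA with its own amino acid, in the cytosol or in the mitochondrion, and growing tissues such as imaginal discs transcribe these genes at high levels.

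The tables held 1 value per group, an FPKM (fragments per kilobase of transcript, scaled to the number of mapped reads) with the authors' confidence bounds, so single libraries could not be compared and no test between groups was run. A gene is called higher or lower here where the bounds of GFP+ and input cells did not overlap, and a ratio of 1.5 was used as a fold threshold. Ratios are FPKM in GFP+ cells over FPKM in input cells, with no pseudocount. Genes needed an FPKM of at least 1 in the higher group, which 9199 genes met, and the mean normalized count of the 51 members that met it was 313 to 232795 (median 7320). In bulk samples a change in the number of cells of a type and a change in RNA per cell cannot be told apart. All 5 tendon markers (sr, Tsp, drm, dar1, Lrt) were higher in GFP+ cells, with a summed FPKM of 881 in GFP+ cells, against 182 in input cells. The cells were sorted on sr-gal4. The study also selected sr, drm and dar1 among transcription factors over 1.5-fold higher in GFP+ cells in these same data. These 3 genes are therefore no independent check of the sort. All 6 myoblast markers (twi, htl, zfh1, Him, Mef2, stumps) were lower, at 14.5 in GFP+ cells, against 156 in input cells, with single genes at 1.36 to 3.30 in GFP+ cells, against 15.9 to 36.9 in input cells. Of 4 neuron markers, nSyb and Syt1 were higher and elav and brp overlapped (sums of 29.1 in GFP+ cells, against 23.4 in input cells). The ratio of elav was 0.543, past the fold threshold downward, at 10.1 (6.08 to 14.1) in GFP+ cells, against 18.6 (13.1 to 24.0) in input cells. Of 5 hemocyte markers, Pxn alone passed the filter and overlapped (sums of 1.38 in GFP+ cells, against 2.80 in input cells), and He was listed at 0 in GFP+ cells. The tracheal gene trh was lower and btl stayed under the filter (sums of 7.86 in GFP+ cells, against 24.9 in input cells). All 3 fat body markers had a ratio over 1.5, 1 of them with bounds apart (sums of 24.8 in GFP+ cells, against 0.178 in input cells). The part of these cell types in the results on translation genes was not tested.

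Most translation genes lay close together in GFP+ and input cells. Of the 57 members, 51 passed the filter, and all 51 had an FPKM above 5 in both groups, at 5.78 to 3208 in GFP+ cells, against 6.16 to 2751 in input cells. Their bounds overlapped for 46. Ef1alpha100E, Ef1beta and eIF-5A were higher in GFP+ cells, which is 3 of 51 (5.88%), against 8.14% of all genes above the filter. The scaffolds eIF4G and eIF4G2 were lower, which is 2 of 51 (3.92%), against 12.9% of all genes. The same 3 and 2 genes passed the fold of 1.5, which 19.5% of all genes passed upward and 22% passed downward. The ratio was between 0.8 and 1/0.8 for 33 members (64.7%) and for 3299 of all genes (35.9%). These sets differ in level, with a median FPKM in GFP+ cells of 100 for members, against 17.0 for all genes. The median error of a log2 ratio, taken from the bounds, was 0.21 for members, against 0.31 for all genes. This error takes each bound to lie 2 standard errors from the FPKM and the groups to be independent. Neither was checked, since the confidence level of the bounds is not given. Members held 1.95% of the summed FPKM in GFP+ cells, against 2.1% in input cells. These shares leave out Ef1alpha48D, the member with the highest mean normalized count, which has no usable FPKM. They are therefore not the shares of the full list, in level or between groups.

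**Figure D1:**
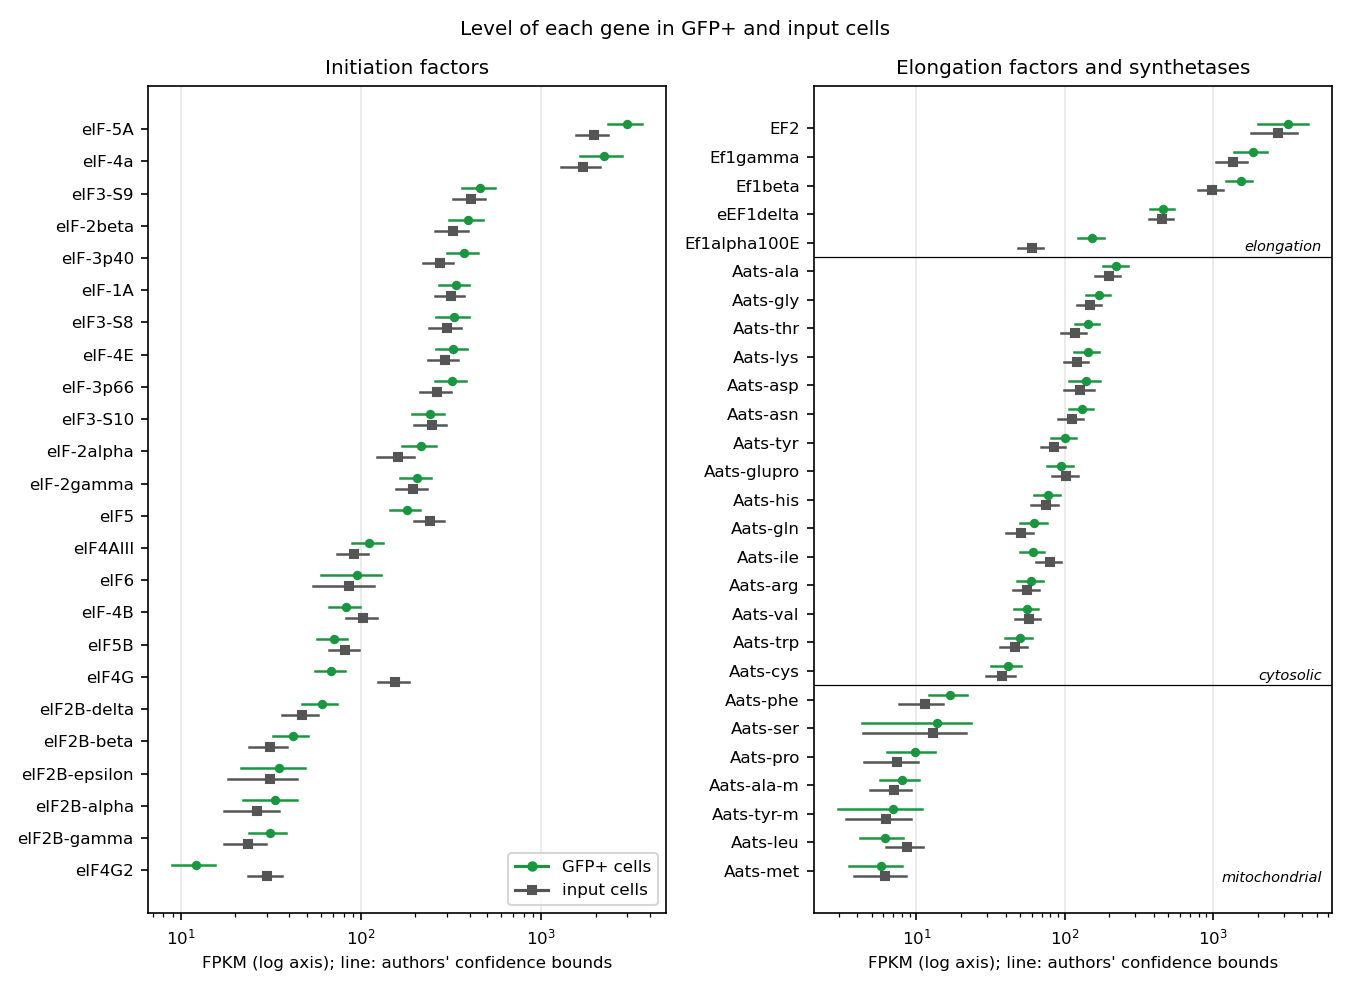
FPKM of the 51 members above the filter on a log axis, with GFP+ cells as green circles above input cells as grey squares; lines are the authors' confidence bounds, from values per group. The bounds are apart for Ef1alpha100E, Ef1beta and eIF-5A (higher in GFP+ cells) and for eIF4G and eIF4G2 (lower), and the mitochondrial synthetases lie between 5.78 and 17.0 in GFP+ cells, under every cytosolic one.

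The ratio was above 1 for 40 members and below 1 for 11, against 4712 and 4487 of all 9199 genes above the filter. Once both groups were rescaled to the same total, it was above 1 for only 6 members, against 2448 of 9199 genes. Median log2 ratios were 0.18 for initiation factors (24 genes), 0.44 for elongation factors (5 genes), 0.13 for cytosolic synthetases (15 genes) and 0.14 for mitochondrial synthetases (7 genes), against 0.03 over all genes above the filter. In ratios these medians are 1.13, 1.36, 1.10 and 1.10, against 1.02. They depend on the scaling, since the FPKM summed to 926347 in GFP+ cells, against 689351 in input cells. With both groups rescaled to the same total, every log2 ratio is 0.43 lower. The medians become -0.25 for initiation factors, 0.01 for elongation factors, -0.29 for cytosolic and -0.28 for mitochondrial synthetases. The median over all genes falls by the same 0.43. At either scaling the class medians lie 0.15, 0.41, 0.11 and 0.12 above it. Cytoplasmic ribosomal proteins took 40.2% of the summed FPKM in GFP+ cells, against 30.1% in input cells. Of their 88 genes above the filter, 72 were higher and 0 lower, against 8.14% and 12.9% of all genes. Their median log2 ratio was 0.83. After rescaling, 2 were higher and 0 lower, against 4.35% and 24.2% of all genes. The ratio was then above 1 for 84 of the 88, against 2448 of 9199 genes. The total used for rescaling includes these ribosomal proteins. The 73 mitochondrial ribosomal proteins had a median of 0.54 and all of them overlapped. Both groups of ribosomal proteins thus had higher medians than each class of translation gene. With the trend of the ratio with transcript length removed, the medians were 0.43 for cytoplasmic and 0.17 for mitochondrial ribosomal proteins, and the order no longer held for the mitochondrial ones; the differences were not tested.

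**Figure D2:**
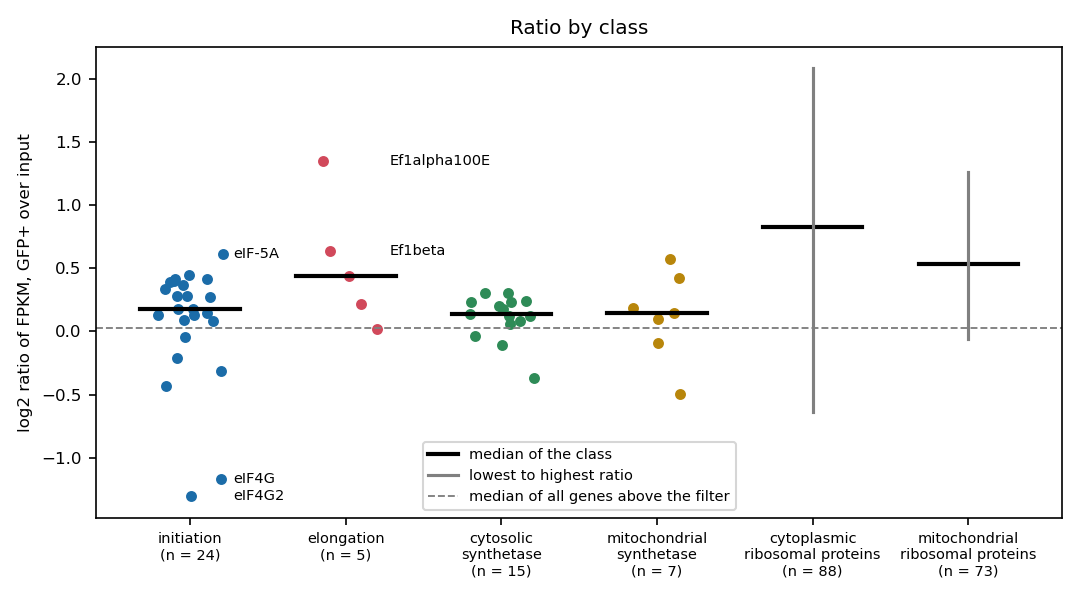
Log2 ratio of FPKM (GFP+ over input) of each member by class as points, with the class median as a bar; for ribosomal proteins the grey line runs from the lowest to the highest gene. Medians of 0.18, 0.44, 0.13 and 0.14 stand under those of cytoplasmic (0.83) and mitochondrial (0.54) ribosomal proteins. With both groups rescaled to the same total, all values are 0.43 lower, the median of all genes included. Of the 4 classes of members, only elongation then keeps a median above 0.

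Elongation factors held the highest ratio of the members above the filter. Ef1alpha100E (eEF1alpha2, on 3R at 31738468 to 31743306 in dm6), one of the fly's genes for the GTPase eEF1A, reached 153 FPKM (bounds 123 to 183) in GFP+ cells, against 60.1 (48.3 to 71.8) in input cells, a ratio of 2.55. It was the only member that stayed higher with bounds apart after rescaling to the same total. Ef1alpha48D (eEF1alpha1, 2R), which encodes the main eEF1A, is listed at 0 in both groups with the status HIDATA, by which Cufflinks marks a locus with too many fragments to be quantified, and is 1 of 10 genes in the table without the status OK. Its mean normalized count over all libraries was 480711, the highest of 17490 genes, 1.52% of the summed mean counts and 53.9 times the count of Ef1alpha100E. The level of eEF1A in each group can therefore not be read from the FPKM, and Ef1alpha100E holds only a small share of eEF1A transcripts over all libraries.

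The subunits of eEF1B, the exchange factor that reloads eEF1A with GTP, differed in their ratios. Ef1beta (2R, 16868222 to 16869280), a catalytic subunit, had 1533 (1227 to 1840) in GFP+ cells, against 986 (796 to 1175) in input cells, and the bounds were apart at a ratio of 1.56. Ef1gamma, the structural subunit, had 1854 (1389.9 to 2318) in GFP+ cells, against 1368 (1049 to 1687) in input cells, where the bounds overlapped (ratio 1.36). The other catalytic subunit, eEF1delta, was nearly level at 461 (375 to 546) in GFP+ cells, against 453 (369 to 538) in input cells. EF2, the translocase eEF2, had the highest FPKM of the 51 members above the filter in both groups, at 3208 (2016 to 4399.6) in GFP+ cells, against 2751 (1808 to 3695) in input cells, and its wide bounds overlapped at a ratio of 1.17.

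Of the initiation factors, the cap-binding complex eIF4F split by subunit. Its scaffold eIF4G (eIF4G1, on chromosome 4 at 915297 to 930715), which holds the cap-binding protein and the helicase together, reached 68.5 FPKM (55.8 to 81.2) in GFP+ cells, against 154 (124 to 184) in input cells, a ratio of 0.444. The paralogous scaffold eIF4G2 (3R, 23808285 to 23819237), known for its role in male meiosis, had 12.2 (8.92 to 15.4) in GFP+ cells, against 30.1 (23.5 to 36.6) in input cells, a ratio of 0.404. Both were lower with bounds apart. The helicase eIF-4a had 2234 (1650.1 to 2817) in GFP+ cells, against 1698 (1289.7 to 2106) in input cells, and the cap-binding protein eIF-4E had 322 (260.1 to 385) in GFP+ cells, against 290.5 (235 to 346) in input cells. Neither was called, and eIF-4B, the cofactor of the helicase, also overlapped at 82.5 (66.4 to 98.5) in GFP+ cells, against 102 (82.4 to 122) in input cells. Per length, eIF-4E mRNA stood 4.71 times above that of eIF4G in GFP+ cells, against 1.88 times above it in input cells, and eIF-4a mRNA 32.6 times in GFP+ cells, against 11.0 times in input cells. Both scaffolds also have the longest transcripts of all members (median lengths of 5806 and 8093 bases), and genes of that length had low ratios as a whole, as described with the length trend.

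**Figure D3:**
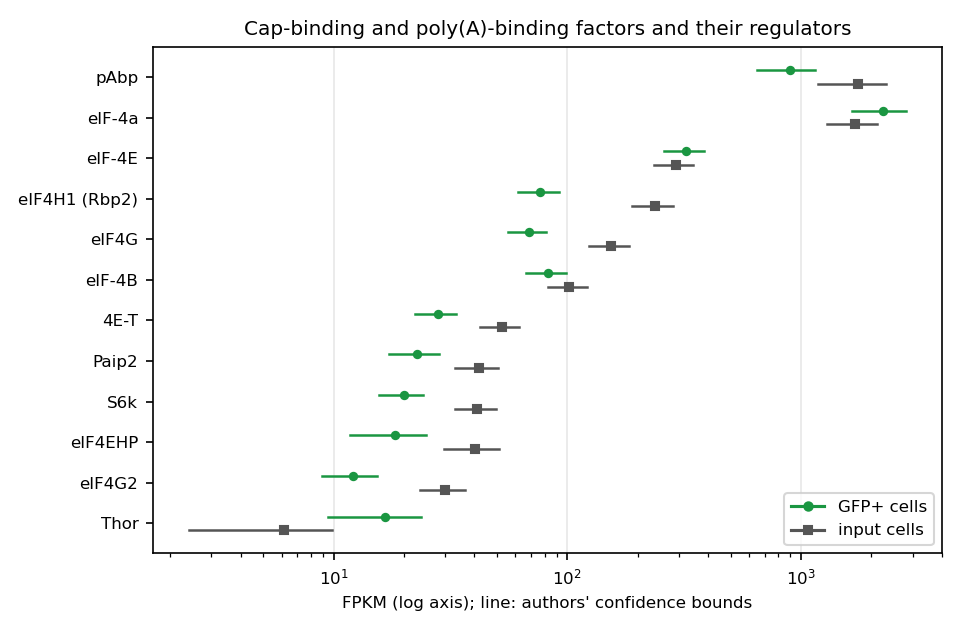
FPKM on a log axis of eIF4F subunits, poly(A)-binding protein and their regulators, GFP+ cells (green circles) above input cells (grey squares), ordered by the level in input cells, with the authors' confidence bounds. eIF4G (68.5 in GFP+ cells, 154 in input cells), eIF4G2, pAbp, 4E-T, Paip2, S6k, eIF4EHP and eIF4H1 have bounds apart and are lower in GFP+ cells, while eIF-4a, eIF-4E, eIF-4B and Thor overlap. The genes shown are a selection, so the share of lower genes among them is not that of a list. Of the cap-binding and initiation control genes, NAT1 (lower) and cup, mxt, bel and me31B (overlapping) are not shown. S6k comes from the TOR list, and eIF4EHP and eIF4H1 were added after the data were seen.

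The remaining cap-binding proteins of the list were near the lower limit of the table. eIF4E-3, known from the male germline, was at 0.166 in GFP+ cells, against 0.140 in input cells, and eIF4E-5 at 0.0567 in GFP+ cells, against 0.236 in input cells. eIF4E-6 was at 0.856 in GFP+ cells, against 0.261 in input cells, with a lower bound of 0 in both groups. eIF4E-4 was listed at 0 in GFP+ cells, against 0.0112 in input cells, and eIF4E-7 at 0 in both. Their mean normalized counts were 0 to 8.59, so nearly all counts of these 6 genes came from eIF-4E (13383), and no difference between the groups was detectable at this depth.

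The eIF2 complex, which brings initiator tRNA to the ribosome, and eIF2B, which reloads it with GTP, had ratios above 1 in all 8 subunits (0 of 8 after rescaling to the same total), with overlapping bounds in each. Over all genes above the filter, 4712 of 9199 had a ratio above 1, and 2448 after rescaling. eIF-2alpha, the subunit that stress kinases phosphorylate, had 214 (168 to 259) in GFP+ cells, against 160.0 (123 to 197) in input cells. eIF-2beta had 390.0 (308 to 472) in GFP+ cells, against 323 (256 to 390.0) in input cells. The GTPase eIF-2gamma had 205 (164 to 245) in GFP+ cells, against 194 (155 to 232) in input cells, the ratio nearest to 1 of the complex (1.06). Transcripts of eIF2B were scarcer. Its catalytic subunit eIF2B-epsilon had 35.1 (21.5 to 48.7) in GFP+ cells, against 31.1 (18.3 to 43.9) in input cells, and eIF2B-gamma, which pairs with it, had 31.1 (23.8 to 38.4) in GFP+ cells, against 23.6 (17.4 to 29.7) in input cells. The regulatory subunits formed a similar group: eIF2B-alpha had 33.1 (22.2 to 44.1) in GFP+ cells, against 26.3 (17.4 to 35.2) in input cells. eIF2B-beta had 41.7 (32.5 to 50.9) in GFP+ cells, against 31.3 (23.8 to 38.7) in input cells, and eIF2B-delta had 60.5 (47.2 to 73.8) in GFP+ cells, against 47.0 (36.3 to 57.6) in input cells. Ratios of the 5 eIF2B subunits lay between 1.13 and 1.33, below 1.5 in each.

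Subunits of eIF3, the large scaffold of the initiation complex, overlapped in all 5 genes that carry eIF names. The core subunits eIF3-S10 (a), eIF3-S9 (b) and eIF3-S8 (c) had ratios of 0.972, 1.13 and 1.10. Their levels were 240.2 (192 to 288) in GFP+ cells, against 247 (197 to 297) in input cells for eIF3-S10, and 459 (365 to 552) in GFP+ cells, against 405 (324 to 487) in input cells for eIF3-S9. For eIF3-S8 they were 328 (262 to 395) in GFP+ cells, against 299.6 (239 to 359.9) in input cells. The cap-contacting subunit eIF-3p66 (d) had 319 (258 to 381) in GFP+ cells, against 263 (213 to 314) in input cells, and eIF-3p40 (h) had 372 (301 to 443) in GFP+ cells, against 273 (221 to 324) in input cells, the highest ratio of these 5 (1.36). A further 8 subunits stand in the table under other symbols, and this full set was put together after the data were seen. With these, 11 of 13 subunits had a ratio above 1 (median log2 ratio 0.35), against 4712 of 9199 genes. After rescaling, 5 of 13 subunits did, against 2448 of 9199 genes. eIF3k (257 in GFP+ cells, 154 in input cells) and eIF3f1 (415 in GFP+ cells, 278 in input cells) were higher with bounds apart, which neither was after rescaling. The lowest ratio of the complex was 0.881 in eIF3j (Adam), its loosely bound subunit.

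The members that act in start-site selection and subunit joining had overlapping bounds, with ratios of 0.740 to 1.10. The scanning factor eIF1, which is listed under another symbol and is no member, also overlapped, at a ratio of 1.41. eIF-1A, which helps the ribosome to scan, had 334 (270.2 to 398) in GFP+ cells, against 315 (256 to 374) in input cells. eIF5, the GTPase activator of eIF2, had 179 (145 to 213) in GFP+ cells, against 242 (196 to 288) in input cells, and these overlapped at a ratio of 0.740; 80.8% of its exonic bases are shared with another annotated gene, so its reads cannot be assigned to it alone. eIF5B, the GTPase that joins the subunits, had 70.5 in GFP+ cells, against 81.6 in input cells, and eIF6, which keeps the large subunit apart, had 94.3 in GFP+ cells, against 86.1 in input cells. A pair of genes is named as initiation factors but acts elsewhere. eIF-5A (now eEF5, 2R at 24057798 to 24059483), the hypusine-bearing factor that helps elongating ribosomes past difficult stretches, had 2997 (2351 to 3643) in GFP+ cells, against 1955 (1561 to 2350.2) in input cells, a ratio of 1.53. Its bounds were only just apart, at 2350.89 in GFP+ cells, against 2350.15 in input cells, and they overlapped once ratios were centred on the median of all genes. eIF4AIII, the helicase of the exon junction complex, had 111 (89.6 to 133) in GFP+ cells, against 91.1 (73.1 to 109) in input cells.

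Cytosolic synthetases had the narrowest range of the 4 classes, with ratios of 0.774 to 1.23 and overlapping bounds in all 15. Of the 15 ratios, 12 were above 1, against 4712 of 9199 genes. After rescaling to the same total, 0 of 15 were, against 2448 of 9199 genes. Levels of these 15 enzymes were 41.3 to 223 in GFP+ cells (median 94.7) and 37.8 to 197 in input cells (median 84.9). The most abundant were Aats-ala at 223 (180.1 to 266) in GFP+ cells, against 197 (159.6 to 235) in input cells, and Aats-gly at 171 (139 to 202) in GFP+ cells, against 148 (121 to 176) in input cells. The highest ratios were those of Aats-thr, at 144 (117 to 171) in GFP+ cells, against 117 (94.8 to 139) in input cells, and Aats-gln, at 62.5 (49.6 to 75.4) in GFP+ cells, against 50.7 (40.2 to 61.2) in input cells, both 1.23. Aats-tyr, Aats-asn and Aats-lys followed with 1.18, 1.18 and 1.17, so the 5 highest ratios lay close together. Aats-tyr had 100.3 (81.3 to 119) in GFP+ cells, against 84.9 (68.8 to 101) in input cells. Aats-asn had 131 (107 to 156) in GFP+ cells, against 111 (90.6 to 132) in input cells, and Aats-lys had 143 (116 to 169.8) in GFP+ cells, against 122 (98.9 to 145) in input cells. The lowest ratio was that of Aats-ile, the isoleucyl enzyme, at 61.2 (49.8 to 72.6) in GFP+ cells, against 79.1 (64.2 to 93.9) in input cells. Aats-glupro, a fused enzyme that charges both glutamate and proline tRNAs, had 94.7 (76.0 to 113) in GFP+ cells, against 102 (81.9 to 122) in input cells, and Aats-val had 55.7 (45.3 to 66.2) in GFP+ cells, against 57.1 (46.4 to 67.9) in input cells. These were the 3 cytosolic enzymes with a ratio below 1. The 5 lowest were completed by Aats-his, at 77.5 (62.4 to 92.6) in GFP+ cells, against 74.4 (59.0 to 89.8) in input cells, and Aats-arg, at 59.4 (47.8 to 71.1) in GFP+ cells, against 56.0 (44.9 to 67.1) in input cells. Ratios of Aats-asp, Aats-cys and Aats-trp lay between 1.09 and 1.10. Of the bases in Aats-asp exons, 73.5% are shared with other genes, and its mean normalized count was 1832, against 7925 for Aats-lys at a similar FPKM.

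Mitochondrial synthetases were expressed at a lower level, with a median FPKM of 8.0 in GFP+ cells, against 7.35 in input cells. The median of the cytosolic enzymes was 11.8 times that of the mitochondrial ones in GFP+ cells, against 11.6 times in input cells. The table calls 5 of them Aats-leu, Aats-met, Aats-phe, Aats-pro and Aats-ser, names without the mitochondrial mark, and their current symbols are LeuRS-m, MetRS-m, PheRS-m, ProRS-m and SerRS-m. All 7 overlapped, and their ratios ranged from 0.708 to 1.49, a wider span than in the cytosolic enzymes at levels with wider bounds. The phenylalanyl enzyme Aats-phe was the highest in level and in ratio, at 17.0 (12.1 to 21.8) in GFP+ cells, against 11.4 (7.58 to 15.2) in input cells. Aats-pro had 9.86 (6.34 to 13.4) in GFP+ cells, against 7.35 (4.41 to 10.3) in input cells. Aats-leu was at the other end, at 6.15 (4.19 to 8.10) in GFP+ cells, against 8.68 (6.26 to 11.1) in input cells. The others were near level. Aats-ser had 13.8 (4.27 to 23.3) in GFP+ cells, against 12.9 (4.38 to 21.5) in input cells, and Aats-ala-m had 8.0 (5.65 to 10.4) in GFP+ cells, against 7.05 (4.84 to 9.26) in input cells. Aats-met had 5.78 (3.5 to 8.05) in GFP+ cells, against 6.16 (3.82 to 8.51) in input cells, and Aats-tyr-m had 6.92 (2.96 to 10.9) in GFP+ cells, against 6.27 (3.37 to 9.16) in input cells. For each amino acid with both enzymes in the table, the cytosolic gene was the more abundant: alanyl enzymes stood at 223 and 8.0 in GFP+ cells, and leucyl enzymes (LeuRS is listed as CG33123) at 62.2 and 6.15 in GFP+ cells.

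Ratios were lower for longer transcripts, over all genes and over the members. Across genes, which are not independent replicates, Spearman's rho of the log2 ratio with the median transcript length was -0.53 over the 51 members and -0.43 over 9048 genes, and the points share the same libraries. Over all genes, the median log2 ratio was 0.54 in the bin of the shortest transcripts and -0.71 in the bin of the longest, of 10 bins with equal numbers of genes. Relative to the smooth trend of all genes, 43 of 51 members lay above it (84.3%, against 54.2% of all genes), all 15 cytosolic synthetases among them. The medians with the trend subtracted were 0.22 for initiation factors, 0.37 for elongation factors, 0.29 for cytosolic and 0.12 for mitochondrial synthetases, against 0.05 over all genes. Subtraction left Ef1alpha100E at 1.54 on the log2 scale, the only member with bounds still apart. Of all genes, 7.14% were higher and 5.41% lower by bounds after subtraction. The log2 ratio of eIF4G was -1.17 before and -0.41 after subtraction, and that of eIF4G2 was -1.31 before and -0.36 after, where their bounds overlapped. Ef1beta (0.28) and eIF-5A (0.20), which have short transcripts, overlapped as well. The lowest members after subtraction were eIF-4B (-0.43), eIF4G and eIF4G2, followed by eEF1delta (-0.33), while eIF-4a (0.38) and eIF-4E (0.01) were not low. Whether the trend came from the cells or from the libraries was not tested.

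**Figure D4:**
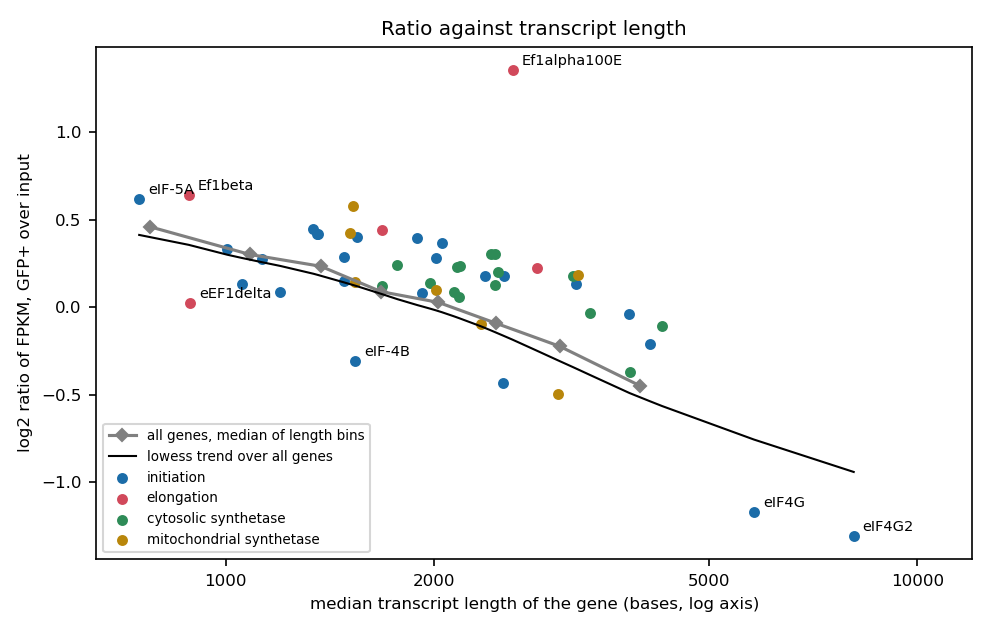
Log2 ratio of FPKM (GFP+ over input) against the median transcript length of the gene in bases, on a log axis, for the 51 members by class; grey diamonds are medians of all genes in 8 of 10 equal bins by length (the shortest and the longest bin are left out) and the black line is the lowess trend of all genes. Ef1alpha100E stands 1.54 above the line, eIF4G and eIF4G2 lie 0.41 and 0.36 below it, and 43 of 51 members lie above it.

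Of 41 further genes of the pathway, all of which passed the filter, 0 were higher, 6 were lower and 35 overlapped, with a median log2 ratio of -0.11. Among those that overlapped, cup had a mean normalized count of 0. Its FPKM was 1.29 in GFP+ cells, against 1.41 in input cells, with a lower bound of 0 in both groups. For cup no statement on a difference is possible. The lower genes were 14.6% of the list, against 12.9% of all genes, a share near the background, and 0 higher genes stood against 8.14%. After rescaling to the same total, 0 were higher and 15 lower (36.6%, against 24.2% of all genes). With the length trend removed, 0 were higher and Paip2 alone was lower, against 7.14% higher and 5.41% lower over all genes. The lower genes were found in 2 groups. Among 9 genes that bind the cap or the poly(A) tail or control initiation, 4 were lower. They were the poly(A)-binding protein pAbp (900.0 in GFP+ cells, 1751 in input cells), its inhibitor Paip2 (22.7 in GFP+ cells, 42.0 in input cells), the eIF4E-binding protein 4E-T (27.9 in GFP+ cells, 52.4 in input cells) and the eIF4G relative NAT1 (126 in GFP+ cells, 199 in input cells). With the length trend removed, the log2 ratio of NAT1 turned to 0.07, and those of 4E-T and pAbp were -0.49 and -0.63. Thor, the eIF4E-binding repressor 4E-BP, had 16.5 (9.45 to 23.6) in GFP+ cells, against 6.12 (2.40 to 9.85) in input cells, and its bounds overlapped at a ratio of 2.70. In the list of the TOR pathway, which couples growth to translation, 2 of 7 genes were lower, where the list also counts Myc. These were the kinase S6k (20.0 in GFP+ cells, 41.2 in input cells) and Myc, a transcription factor that drives growth, at 9.26 (0 to 21.7) in GFP+ cells, against 54.2 (33.5 to 75.0) in input cells. With the length trend removed, their log2 ratios were -0.50 for S6k and -1.75 for Myc. Tor itself had 19.6 in GFP+ cells, against 26.9 in input cells. None of the 5 termination and rescue genes, the 4 eIF3 subunits under other symbols, the 4 stress response genes, the 8 mitochondrial translation factors or the 4 partners and paralogs of synthetases was called. Of these, the ATF4 homologue crc was the most abundant, at 863 in GFP+ cells, against 693 in input cells.

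Current symbols of the eIF, eEF and RS type belong to 29 more genes that the table lists under other names, and these were added after the data were seen. Of the 25 above the filter, 2 were higher (eIF3f1 and eIF3k), 2 were lower and 21 overlapped, against 0 higher and 5 lower after rescaling. Of these genes, 8% were higher and 8% lower, against 8.14% and 12.9% of all genes, and 20% were lower after rescaling, against 24.2% of all genes. eIF4H1 (Rbp2), the relative of eIF4B that aids the helicase, had 76.8 (61.4 to 92.1) in GFP+ cells, against 237 (189 to 284) in input cells, a ratio of 0.324 that was the lowest of all translation factors above the filter. eIF4EHP, a cap-binding protein that represses translation, had 18.3 (11.7 to 24.8) in GFP+ cells, against 40.2 (29.6 to 50.8) in input cells. With the length trend subtracted, their log2 ratios were -1.38 for eIF4H1 and -1.09 for eIF4EHP. eIF1, the partner of eIF-1A in scanning, had 558 in GFP+ cells, against 396 in input cells, and the cytosolic enzymes SerRS (244 in GFP+ cells, 194 in input cells) and MetRS (48.7 in GFP+ cells, 43.6 in input cells) had overlapping bounds, as had LeuRS (62.2 in GFP+ cells, 73.2 in input cells).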

How the data were processed

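Messenger RNA of leg disc cells was sequenced from a single end after oligo-dT priming. The submitters' processing notes name Trimmomatic 0.32, Bowtie2 2.1.0, Cufflinks 2.2.1 and DESeq2 1.2.8, with dm6 as the genome. The authors deposited FPKM values with confidence bounds and a status, 1 per group. From the second table only the mean normalized count over all libraries was used, a signal value that the authors deposited. Its other columns hold the authors' own comparison of GFP+ with input cells (fold changes, errors, test statistics and p-values) and were not used. The confidence level of the bounds and the annotation release are not given in the sources used here. The design foresaw a test between libraries for values of single libraries; the tables hold values per group, so neither depth nor spread per library was analysed here.

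Ratios of FPKM were computed with Python 3.11.15, pandas 2.3.3 and numpy 2.4.6, for genes with an FPKM of at least 1 in the higher group and the status OK in both. Ensembl 115, which annotates the same assembly, gave transcript lengths, positions and shared exons; all 57 members had an entry, 3 of them under a newer ID. The length trend was a lowess fit (span 0.3, statsmodels 0.14.6) of the log2 ratio on log10 length. It used the 9048 genes above the filter with a length and an FPKM above 0 in both groups. Removal of the trend was tested on simulated data. All members could be named. Values with bounds are given for eIF2, eIF2B, eIF3, eIF4F, elongation factors, mitochondrial synthetases, the 5 highest and 5 lowest ratios of cytosolic synthetases and the 3 highest levels of each class. Members and lists were chosen with earlier results of these data known. Alternatives were other scalings, fold thresholds, filters, pseudocounts and class memberships. A planned search for promoter motifs was not run, and no sequences are shown.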

Additional observations from a re-analysis of the deposited data

Results flagged for a closer look

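Ef1alpha48D was noticed because its signal appears outside the FPKM on which the comparisons rest. The gene is listed with an FPKM of 0 in both groups and with the status HIDATA, which marks a locus with too many fragments to be quantified, while its mean normalized count over all libraries was 480711, the highest of 17490 genes. The value is a mean over both groups and gives no difference between them.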

How the results depend on the processing

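Rescaling both groups to the same total turned the median log2 ratio of initiation factors to -0.25. Those of cytosolic and mitochondrial synthetases turned to -0.29 and -0.28, and that of elongation factors was left at 0.012. The median over all genes falls by the same amount as each of these. Rescaling gave 1 member higher and 7 lower, both by bounds and by the fold of 1.5. The 7 with bounds apart were eIF4G, eIF4G2, eIF-4B, eIF5, eIF5B, Aats-ile and Aats-leu. The lower members were 13.7% of 51, against 24.2% of all genes by bounds, and 4.35% of all genes were higher. With the length trend removed, 1 member was higher and 0 were lower, by bounds and by fold. By bounds, 7.14% of all genes were then higher and 5.41% lower. A fold threshold of 5/4 gave 13 higher and 5 lower members, and a fold of 2 gave 1 higher and 2 lower. Shares of all genes at these folds are not given here. Adding the genes with a fitting current symbol, chosen after the data were seen, gave 5 higher and 4 lower, by bounds and by fold. Centring on the median of all genes left 2 members higher by bounds, without eIF-5A. In all, 61 of the 80 alternative values of medians and member counts stayed within 1.5 times for counts, or within the error of a ratio taken from the bounds (0.20 to 0.39 on the log2 scale) for medians. That error rests on an assumed confidence level of the bounds, and it belongs to ratios of single genes, not to medians. The medians of initiation factors (0.18), cytosolic (0.13) and mitochondrial synthetases (0.14) are smaller than the error of their class. A fall of these to near 0 would thus still be counted, and some alternatives cannot move some values. The 61 of 80 therefore shows little about how stable the medians are. Of the counts per class, 100 of 160 alternatives start from a count of 0 and show little; of the other 60, 35 stayed within 1.5 times.

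No paired analysis was possible because the tables hold 1 value per group and their columns carry no replicate number; for the same reason no replicate was left out. Values per group show no spread between libraries, so a call by bounds rests on the authors' model of error alone. Reads of the 7 members that share over 10% of their exonic bases with another gene (eIF5, Aats-asp, eIF-3p40, Aats-glupro, eIF-2gamma, Aats-ser and eIF-2alpha) cannot be told apart from those of that gene where they share bases. Members under an FPKM of 1 allow no statement on a difference.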
